A study of Mus musculus with 20 samples.

Results

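Cajal-Retzius nuclei were selected on measured values, out of single-nucleus RNA sequencing profiles of the mouse hippocampus: the raw counts of unique molecular identifiers (UMIs, each standing for 1 captured RNA molecule) of 13 genes. A nucleus was a member when it held at least 3 UMIs of Reln and at least 1 UMI of Trp73, Lhx1 and Ebf3 summed. It could hold at most 1 UMI of Gad1 and Gad2 together, which mark GABAergic neurons. It could hold no UMI of Prox1 (dentate granule neurons), of Fibcd1 or Gm2115 (CA1 pyramidal neurons), or of the glial genes Mog, Pdgfra, Csf1r and Aqp4. The rule chose 337 of 160777 nuclei, which is 0.2096% of the series. Every mouse contributed members, from 6 to 27 nuclei each with a median of 17.5.

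The series comprised 20 male mice aged 4.5 to 5.5 months, 1 hippocampal library each, of 2 genotypes and 3 brain states. APP/PS1 mice carry the APPSwe and PS1ΔE9 transgenes of familial Alzheimer's disease, and the WT mice were their littermates. Mice were either awake, under isoflurane (5%, then lowered to 1.5%) or under ketamine (150 mg/kg) with xylazine (12 mg/kg), and tissue from the anaesthetised mice was taken after 3 hours. The labels placed 6 mice in the WT wake group, 3 in APP/PS1 wake, 3 in WT isoflurane, 4 in APP/PS1 isoflurane, 2 in WT ketamine and 2 in APP/PS1 ketamine. The submitters' design text and the study give other sizes for the wake and isoflurane groups, and the labels of the single mice were used throughout. Members numbered 115, 56, 46, 74, 16 and 30 in these groups in the same order. The transgenes are driven by a prion protein promoter, which is not specific to Cajal-Retzius cells, and each state stands for 1 drug schedule at 1 age.

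Cajal-Retzius cells are among the earliest neurons of the cortex and hippocampus. They lie in the outermost layer, in the hippocampus along the fissure, and secrete the glycoprotein reelin, which binds the lipoprotein receptors Vldlr and Lrp8 on migrating neurons and acts through the adaptor Dab1. They are glutamatergic, they arise from sources such as the cortical hem, and many of them depend on the p53-family factor p73, the product of Trp73. Most Cajal-Retzius cells of the neocortex die after birth, whereas part of the hippocampal population persists into adulthood, where GABAergic interneurons also make reelin. Lhx1 encodes a LIM homeodomain factor and Ebf3 an early B-cell factor, both known from these cells.

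The values of the rule's genes are the selection itself and are given as a description. Reln (ENSMUSG00000042453, chr5:21884454-22344702, minus strand, GRCm38) had a median of 8 UMIs per member, from 3 to 52, with quartiles at 5 and 13. Trp73 was detected in 219 of 337 members, Ebf3 in 188 and Lhx1 in 48. Trp73 was the only gene of the trio in 117 members, Ebf3 in 94 and Lhx1 in 18, and Trp73 and Ebf3 were seen together in 78 without Lhx1 and in 10 with it. Most members thus rested on a single UMI of the trio, since 179 had exactly 1, 93 had 2 and 65 had 3 or more.

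Genes outside the rule were followed across both thresholds. With the rest of the rule met, Ndnf, which encodes a secreted neurotrophic factor known from Cajal-Retzius and neurogliaform cells, was detected in 3.14% of the 1018 nuclei without Reln. It was detected in 15.7% of the 51 nuclei with 1 Reln UMI, in 35.7% of the 28 with 2, just outside the threshold, and in 40.6% of the 32 with 3, just inside it. Among nuclei that met everything but the trio, 24.9% of 944 held Ndnf and 9.96% held Slc32a1, the vesicular GABA transporter, at a median of 2537.5 UMIs. With 1 trio UMI the share with Ndnf was 67.0%, with 2 it was 64.5% and with 3 or more 81.5%. The 28 nuclei just below the Reln threshold were thus near the 32 just inside it in Ndnf and in Cacna2d2 (39.3% against 37.5%), while all 337 members held Ndnf in 69.1% and Cacna2d2 in 46.3%. The exclusions removed 66 of 403 nuclei that met the Reln and trio criteria, and those 66 were deeper than the members, with a median of 3751 UMIs.

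**Figure D1:**
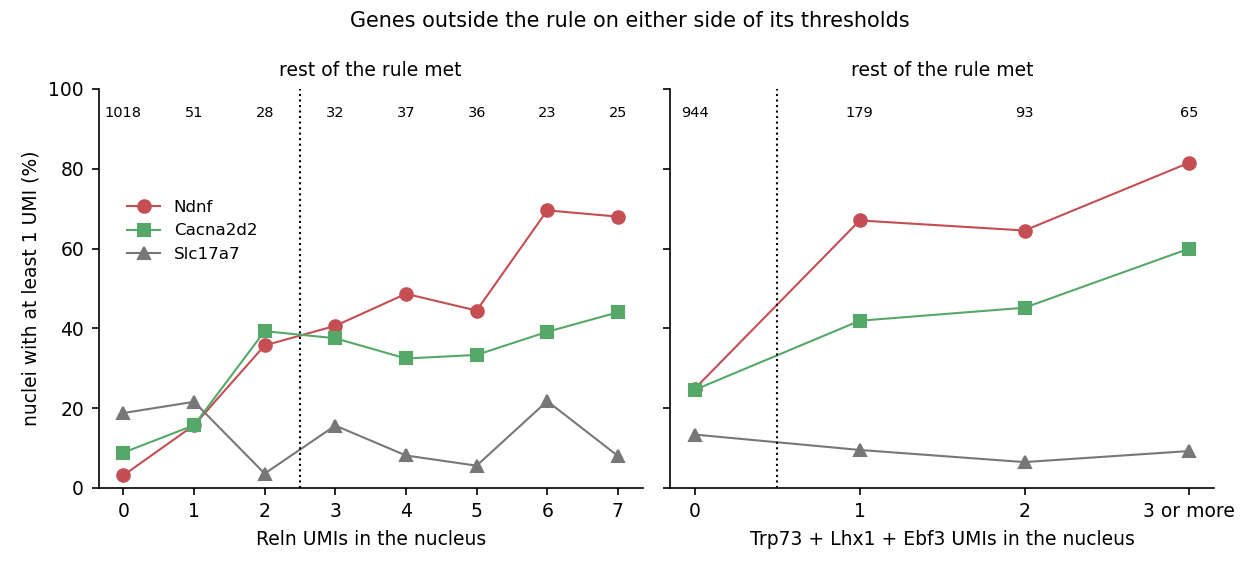
Share of nuclei (%) with at least 1 UMI of Ndnf, Cacna2d2 or Slc17a7, by the number of Reln UMIs (left) and of Trp73, Lhx1 and Ebf3 UMIs together (right), with the rest of the rule met, the dotted lines at the thresholds and the number of nuclei at the top. The Ndnf share climbs from 3.14% at no Reln UMI to 40.6% at 3, and from 24.9% at no trio UMI to 67.0% at 1.

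Members were shallow nuclei. Their median was 1080 UMIs and 739 genes, and the medians of single mice ran from 734 to 2068 UMIs. GABAergic nuclei with Reln (638 nuclei with at least 3 Reln UMIs, at least 2 UMIs of Gad1 and Gad2, and no UMI of the glial genes) had a median of 4261.5 UMIs. Glutamatergic nuclei with Slc17a7, the vesicular transporter Vglut1 (10703 nuclei with at least 2 of its UMIs, at most 1 of Gad1 and Gad2, and none of the trio or the glial genes), had 3980, and all 160440 other nuclei had 1626. Members together held 488564 UMIs, so 3 counts, the most that a count of 0 allows, stood for 6.14 CPM (a gene's UMIs scaled to the UMI total of the same nuclei). In single mice 1 UMI of the members stood for 22.5 to 153 CPM. Shares and intervals cover counting error only. No member shared its barcode with another member, although 16 of the 337 barcodes recurred in another library.

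The libraries held 9243992 to 25394891 UMIs. Mice 1 to 4 stood apart in the share of mitochondrial UMIs, at 0.939% to 1.776% of all UMIs against 0.035% to 0.336% in the other 16. Prnp was used to check the genotype labels, because the transgenes of this line are driven by the prion promoter. Over all nuclei it averaged 210 CPM in APP/PS1 and 90.2 CPM in WT mice (two-sided exact permutation test, p = 0.00624, 0.112 adjusted over 18 tests of depth and quality), but the groups overlapped, with 3 APP/PS1 mice (11, 17 and 20) at 63.6, 74.5 and 99.7 CPM and a WT mouse (14) at 196 CPM. Genotype results below are therefore given for mice as labelled. The ketamine mice carried consecutive numbers, 25 to 28, next to a WT wake mouse, 29, so ketamine and that run of numbers cannot be told apart but for that mouse.

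Members were compared with the other nuclei of the same mice by summing the UMIs of each kind of nucleus per mouse and fitting edgeR's quasi-likelihood model with mouse as a block. The 17 mice with at least 10 members entered (mice 12, 27 and 28 had 6, 8 and 8), and a gene was called at a Benjamini-Hochberg adjusted p below 0.05. The 13 genes of the rule were left out, and genes that run with them in a cell type had to differ along with them. Against GABAergic Reln nuclei, 266 of 999 genes tested were higher (26.6%) and 321 were lower (32.1%). Against Slc17a7 nuclei, 833 of 5975 were higher (13.9%) and 1075 lower (18%), and against all other nuclei 855 of 14723 were higher (5.81%) and 1288 lower (8.75%). The median of all genes was near 0 in each (-0.03, -0.00 and -0.07 on the log2 scale). With a scaling factor for each sum in place of 1 per kind of nucleus, that median moved by 0.10, -0.24 and -0.62 and the counts became 316 higher and 291 lower, 550 and 1569, and 388 and 4691. Counts of a gene list below are among members of the list that passed the filter on low counts. A gene could pass that filter through 1 kind of nucleus alone. The counts are a description, to be read beside the shares of all genes given above.

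Markers of Cajal-Retzius cells that the rule had not used were called higher in the members where they could be tested. Of 13 such genes, 8 could be tested against all other nuclei and all 8 were higher, 4 of 4 against Slc17a7 nuclei and 2 of 2 against GABAergic Reln nuclei. A marker scarce in the other nuclei could pass the filter only through the members, so these counts describe the members and do not test the label. Ndnf (chr6:65671590-65712326, plus strand) reached 1250 ± 546 CPM (SD, n = 17 mice), from 392 through a median of 1195 to 2669. It averaged 126 CPM in GABAergic Reln nuclei, 1.54 in Slc17a7 nuclei and 7.73 in all others. Members were higher than each of the other kinds in 17 of 17 mice without overlap between kinds, by 3.33 ± 0.16 (SE), 9.35 ± 0.20 and 7.25 ± 0.17 on the log2 scale (edgeR, adjusted p = 1.14e-14, 6.93e-64 and 5.25e-64). At least 1 Ndnf UMI was found in 69.1% of members, 27.9% of GABAergic Reln nuclei and 0.710% of Slc17a7 nuclei.

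Cacna2d2, an auxiliary α2δ subunit of voltage-gated calcium channels, averaged 528 ± 299 CPM in members, from 146 to 1251 with a median of 454. This was 3.01 above GABAergic Reln nuclei, 6.33 above Slc17a7 nuclei and 4.73 above all others on the log2 scale, again in 17 of 17 mice. Eya2, a transcriptional coactivator, stood at 162 CPM, 5.18 above Slc17a7 nuclei and 4.10 above all others. Slc17a6, which encodes the vesicular glutamate transporter Vglut2, stood at 137 ± 75.6 CPM in members and 7.59 in Slc17a7 nuclei, a log2 difference of 3.98 ± 0.30, and was higher in 16 of 17 mice. Slc17a7 itself averaged 69.9 CPM in members against 159.5 in all other nuclei, 1.24 lower on the log2 scale.

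Other classical markers were detected in few members. Lhx5 was seen in 7.72% of members against 0.470% of GABAergic Reln nuclei, Nhlh2 in 3.56%, Tbr1 in 3.26% and Calb2, which encodes calretinin, in 2.67%. Tbr1, Calb2, Emx2 and Ebf1 were called against all other nuclei (2.38, 2.38, 2.82 and 1.25 on the log2 scale), but Calb2 rested on 9 UMIs and Tbr1 on 12, and members were lower than the others in more of the mice for Calb2 (11 of 17), Tbr1 (9) and Ebf1 (12). Ebf1 turned to -0.30 under DESeq2. Ndnf, Cacna2d2, Eya2 and Slc17a6 were thus called higher wherever they could be tested, and Lhx5 could be tested in no comparison. Calretinin, often used as a protein marker of these cells, was at 0 in 11 of 17 mice.

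Dach1 and Tmem163, which were not on that list, were among the 10 leading higher genes of each of the 3 comparisons, and Ndnf led those with Slc17a7 and all other nuclei. Dach1 (chr14:97786853-98169765, minus strand), a transcriptional cofactor of the dachshund family, averaged 1771 ± 541 CPM, from 668 through 1589 to 2559. The means elsewhere were 26.7 CPM in GABAergic Reln nuclei, 22.2 in Slc17a7 nuclei and 36.3 in all others. It was higher in 17 of 17 mice by 6.23 ± 0.25, 6.16 ± 0.16 and 5.53 ± 0.15 on the log2 scale (adjusted p = 3.23e-16, 3.54e-57 and 4.91e-57). Tmem163, a zinc-binding vesicle protein, averaged 1174 ± 395 CPM and was higher by 7.08, 5.94 and 5.06. Dach1 had a UMI in 77.7% of members and 5.73% of other nuclei, and Tmem163 in 70.6% and 4.81%.

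Other leading genes were Cdh4, Utrn, Eln and Hs3st5. Cdh4, a classical cadherin (R-cadherin), averaged 1046 CPM and was 3.47, 5.06 and 4.69 higher than the 3 kinds in turn. Utrn, the dystrophin relative utrophin, averaged 1408 CPM and was 2.44, 6.65 and 4.33 higher. Eln, which encodes elastin, averaged 397 CPM, 6.17 above Slc17a7 nuclei and 5.65 above all others. Hs3st5, a heparan sulfate sulfotransferase, averaged 775 CPM and was 1.96, 5.58 and 4.94 higher.

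Rarer transcripts also marked the members. Cd274, which encodes the immune checkpoint ligand PD-L1, had a UMI in 53 members (15.7%), and its mean of 120 CPM compared with 0.479 in Slc17a7 nuclei and 1.13 in all others (7.73 and 6.64 on the log2 scale). Mab21l3 was seen in 42 members, was at 0 in all GABAergic Reln sums and stood 8.70 above all other nuclei, higher in 16 of 17 mice. Gm10475 (chr5:21910931-21954014, plus strand) averaged 540 CPM and was 2.30, 8.95 and 6.99 higher. It is an antisense gene lying inside Reln, a gene of the rule, so its height is not counted as a separate finding. Against the GABAergic Reln nuclei the leading genes were completed by Plekha7, an adherens junction protein (4.47), Thsd7b (3.68), Msi2, an RNA-binding protein (2.72), Rbms1 (2.63) and Dync1i1, a dynein intermediate chain (2.21). Rbms3 averaged 1134 CPM in members, 1086 in GABAergic Reln nuclei (0.11, adjusted p = 0.417) and 76.7 in Slc17a7 nuclei, and only the last difference was called.

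**Figure D2:**
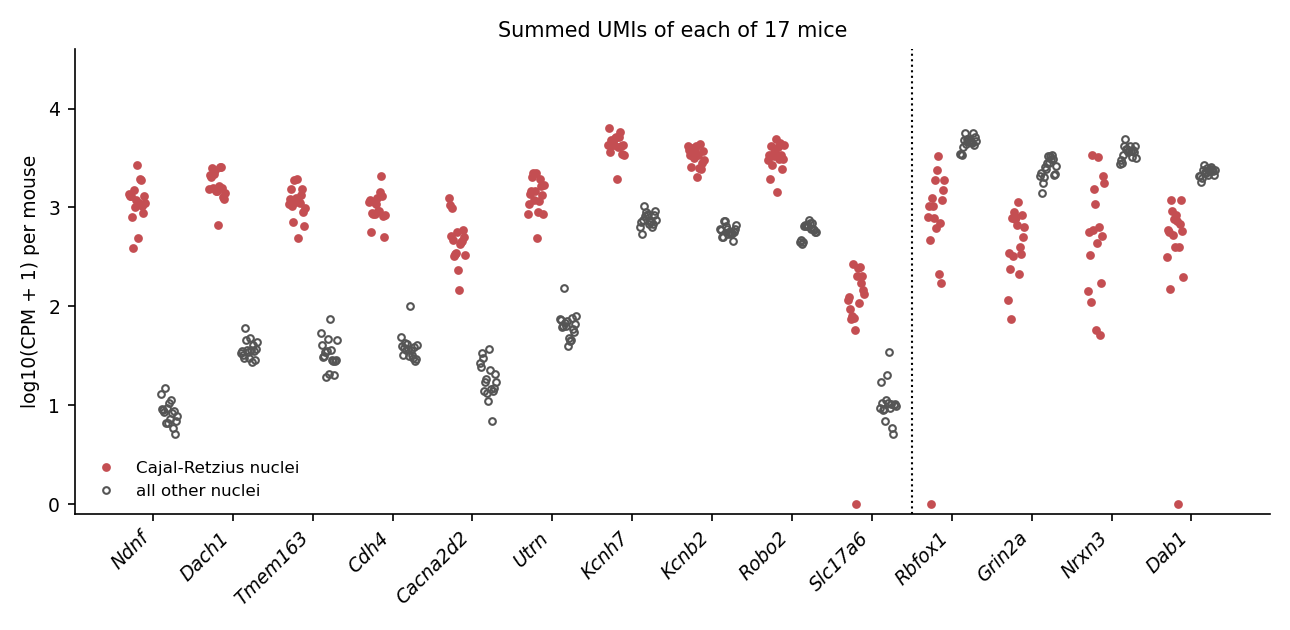
log10(CPM + 1) of 14 genes in the summed UMIs of each of 17 mice, for Cajal-Retzius nuclei (filled) and all other nuclei (open), with genes higher in members left of the dotted line and genes lower in members to its right. For Ndnf, Dach1, Tmem163, Cdh4, Cacna2d2, Utrn, Kcnh7, Kcnb2 and Robo2 the 2 kinds do not overlap, and the genes on the right spread most between mice in the members.

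Ebf3 encodes a factor of a family that binds the palindrome CCCNNGGG, and promoters were searched for it on both strands. Of the 5 promoters of Reln and the trio, the 2 with a match (Reln and Ebf3) are shown beside that of the leading marker Dach1, and the promoters of Trp73 and Lhx1 held none. The 250 bases before the start of each gene are given 5′ to 3′ on its own strand (RefSeq, GRCm38.p6), with matches in capitals.
Reln, chr5:22344706-22344955: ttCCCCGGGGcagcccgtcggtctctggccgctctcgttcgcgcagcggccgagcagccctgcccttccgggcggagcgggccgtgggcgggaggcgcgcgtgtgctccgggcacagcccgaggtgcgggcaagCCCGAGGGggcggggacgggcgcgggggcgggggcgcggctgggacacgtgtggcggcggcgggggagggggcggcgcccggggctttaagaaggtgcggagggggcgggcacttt
Ebf3, chr7:137314446-137314695: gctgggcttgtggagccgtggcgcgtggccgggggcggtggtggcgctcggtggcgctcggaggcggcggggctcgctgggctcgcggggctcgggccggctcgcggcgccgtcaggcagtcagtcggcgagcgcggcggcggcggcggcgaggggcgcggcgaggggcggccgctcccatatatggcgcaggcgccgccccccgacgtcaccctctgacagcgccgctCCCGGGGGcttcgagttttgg
Dach1, chr14:98169766-98170015: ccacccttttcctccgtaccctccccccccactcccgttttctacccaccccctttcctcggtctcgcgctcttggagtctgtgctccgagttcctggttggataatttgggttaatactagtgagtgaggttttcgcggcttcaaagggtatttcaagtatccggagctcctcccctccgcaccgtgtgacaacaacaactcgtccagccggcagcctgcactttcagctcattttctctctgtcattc
Reln held 2 matches, the nearer 116 bases before the start, Ebf3 held 1 at 21 bases and Dach1 none. The GC content of these windows was 80.0% for Reln, 80.0% for Ebf3 and 54.8% for Dach1. Among all 32851 promoters of this length 11.8% held a match, against 12.5% of 16 promoters of the named higher genes and 2.63% of 38 promoters of the named lower genes. The share among the higher genes was thus near that of all promoters. The 16 promoters came from 12 of 18 named higher genes, held none for Ndnf and included overlapping windows of Msi2. The 38 promoters came from 21 of 25 named lower genes.

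Against the GABAergic Reln nuclei, which were chosen by Gad1 and Gad2, the leading lower genes included Nxph1 and Maf. Nxph1 (neurexophilin) averaged 43.4 CPM in members against 1869, a log2 difference of -5.54 ± 0.32. Maf, a factor of medial ganglionic interneurons, was at -5.69 with 5 UMIs in all members, Col19a1 at -5.11, Npas3 at -4.30, Sox2ot at -3.94 and Grip1 at -3.83. Each was lower in 17 of 17 mice. Slc32a1 was found in 1 member and Lamp5, a neurogliaform marker, in none, which allows up to 6.14 CPM. Of the 16 GABAergic markers, 3 (Dlx1, Lamp5 and Lhx6) had no UMI in the members of the 17 mice. The 16 include Gad1 and Gad2, which the rule and the choice of both other kinds had used. Without them the summed level of the other 14 ran from 107 to 2467 CPM in members, 5188 to 13300 CPM in GABAergic Reln nuclei and 468 to 774 CPM in Slc17a7 nuclei.

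Against the Slc17a7 nuclei the leading lower genes included Rbfox1, Nrxn3 and Dlgap1. Rbfox1, a splicing regulator, averaged 1131 ± 856 CPM in members, from 0 through 1024 to 3287, against 6401 in Slc17a7 nuclei, lower in 17 of 17 mice by 2.84 ± 0.19 on the log2 scale (adjusted p = 3.33e-25). Nrxn3, a presynaptic adhesion protein, averaged 980 ± 1065 CPM, from 49.8 to 3368, against 5321, and Dlgap1, a postsynaptic scaffold, averaged 808 against 3454 CPM. These genes were concentrated in a few members. The 10 nuclei richest in Nrxn3 held 61.0% of its UMIs, and the 10 richest in Rbfox1 held 55.1%, compared with 13.6% for Ndnf and 13.3% for Dach1.

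That concentration followed depth. The 55 members (16.3%) with more than 2000 UMIs held 41.0% of all UMIs of the members, and their sums had 3584 CPM of Reln against 9681 CPM in the 282 shallower members. The 2 classes had medians of 3018 and 984.5 UMIs. Ndnf was detected in 69.1% of the deeper and 69.2% of the shallower members, but its level was 530 CPM in the former and 1626 CPM in the latter. Nrxn3 was detected in 52.7% of the deeper and 13.8% of the shallower members, Rbfox1 in 70.9% and 9.57%, and Grin2a in 61.8% and 7.09%. Doublet calls marked 4 of the deeper and 8 of the shallower members, 12 of 337 in all (3.56%, against 5.70% of all nuclei). Markers of other types were present too, with at least 5 GABAergic UMIs in 20 members (5.94%). At least 5 hippocampal and cortical glutamatergic UMIs were held by 24 members (7.12%), CA3 UMIs by 9 and oligodendrocyte precursor UMIs by 7. An Mbp UMI was found in 73 members (21.7%). Mbp is a myelin transcript that these neurons should lack and that 37.0% of the deeper Slc17a7 nuclei also held. Summed over 6 oligodendrocyte markers, members had 133 to 1097 CPM per mouse and Slc17a7 nuclei 191 to 578, and over 5 astrocyte markers 113.5 to 1347 and 224 to 390, with Mog and Aqp4 at 0 by the rule. What part mixed droplets took in the levels of the lower genes was not tested, but with nuclei of at most 2000 UMIs on both sides Rbfox1 was at -4.09, Grin2a at -4.70 and Nrxn3 at -2.73 against Slc17a7 nuclei.

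Of potassium and HCN channels, 34 genes were listed, and in the main fits a few were far above other neurons while most called members were lower. Kcnh7 (chr2:62693414-63184287, minus strand), an ether-à-go-go related (ERG) channel, averaged 4401 ± 1019 CPM, from 1916 through 4294 to 6416. It averaged 982 CPM in GABAergic Reln nuclei, 928 in Slc17a7 nuclei and 764 in all others, and was higher in 17 of 17 mice by 2.26 ± 0.15, 2.11 ± 0.13 and 2.43 ± 0.11. Kcnb2 (chr1:15287254-15723750, plus strand), a delayed rectifier of the Kv2 family, averaged 3336 ± 695 CPM, from 2032 to 4335, against 645, 707 and 586. Its log2 differences were 2.41, 2.09 and 2.42, again in 17 of 17 mice.

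Kcnk2, a background leak channel of the TREK type, averaged 306 CPM and was 3.31, 2.02 and 1.97 higher. Against GABAergic Reln nuclei it passed the filter on low counts in only 3 of the 17 fits that left out 1 mouse. Kcnc2, a fast delayed rectifier typical of fast-spiking interneurons, was 1.38 above Slc17a7 nuclei and 0.25 below GABAergic Reln nuclei (adjusted p = 0.110). Lower channels included Kcnd2, an A-type channel (873 against 3094 CPM in Slc17a7 nuclei, -2.20), and Kcnn2, a calcium-activated channel of small conductance (-2.76). The list had 4 higher and 13 lower genes of 26 tested against Slc17a7 nuclei (median -0.68), 5 and 6 of 12 against GABAergic Reln nuclei (-0.39), and 6 and 12 of 33 against all others (-0.70). With at most 2000 UMIs on both sides, few of the list could be tested against Slc17a7 nuclei. Kcnc2 (3.79), Kcnh7 (3.22), Kcnb2 (2.92) and Kcnq5 (2.14) were then called higher and Kcnd2 (-3.68) and Kcnq3 (-1.99) lower. Kcnma1 (0.19) was not called.

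Calcium channel subunits split the same way. Besides Cacna2d2, Cacna2d1 averaged 1676 ± 327 CPM, from 1076 to 2112, and was higher in 17 of 17 mice by 1.58, 1.10 and 1.42, whereas Cacna2d3 was lower by 0.91 than in GABAergic Reln nuclei and by 0.48 than in Slc17a7 nuclei. Among nuclei of at most 2000 UMIs the last value turned to 0.90. Cacnb2, a cytoplasmic β subunit, was at -1.31, -2.82 and -2.20, and Cacna1e, the R-type pore, at -2.23 against Slc17a7 nuclei. Cacna1a, the P/Q-type pore, was called higher than all other nuclei (0.39), but turned to -0.27 with a scaling factor per sum and to -0.58 under DESeq2. Of 16 subunits listed, 2 were higher and 8 lower of 12 tested against Slc17a7 nuclei, with a median of -0.58. With at most 2000 UMIs on both sides, Cacna2d1 (1.85), Cacna1a (0.90) and Cacna2d3 (0.90) were called higher than Slc17a7 nuclei. Cacna1e (-4.10) and Cacnb2 (-3.41) were called lower, and Cacna1c (0.27) was not called.

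Ionotropic and metabotropic glutamate receptors were mostly lower, with Gria4 as an exception against Slc17a7 and all other nuclei. Of 23 receptor genes, 12 of 18 tested were lower and 2 higher than in Slc17a7 nuclei (median -1.46), 12 of 14 were lower than in GABAergic Reln nuclei (-1.63) and 14 of 22 than in all others (-1.10). Grin2a, the GluN2A subunit of NMDA receptors, averaged 533 ± 309 CPM in members, from 73.5 through 502 to 1144, against 3178 CPM in Slc17a7 and 1976 in GABAergic Reln nuclei. It was lower in 17 of 17 mice by 2.80 ± 0.17 and 1.96 ± 0.20 on the log2 scale (adjusted p = 8.03e-28 and 6.53e-09). Grin2b was at -2.25 and Grm5, the mGluR5 receptor, at -2.48 against Slc17a7 nuclei.

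AMPA receptor subunits went different ways. Gria4 averaged 1052 ± 282 CPM, from 585 to 1794, against 271 in Slc17a7 nuclei, higher in 17 of 17 mice by 1.82 ± 0.14, and was 0.48 below GABAergic Reln nuclei. Gria2, which sets the calcium permeability of the receptor, averaged 1366 ± 217 CPM and was 0.70 below Slc17a7 nuclei and 0.45 above GABAergic Reln nuclei, where it was the only receptor of the list called higher. Gria1 was at -1.03 and Gria3 at -2.18 against Slc17a7 nuclei. With at most 2000 UMIs on both sides Gria4 was at 2.83 and Gria2 at -0.35 against Slc17a7 nuclei. The kainate subunit Grik1 stood 3.89 below GABAergic Reln nuclei and 1.44 above Slc17a7 nuclei, although members exceeded Slc17a7 nuclei in only 8 of 17 mice.

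**Figure D3:**
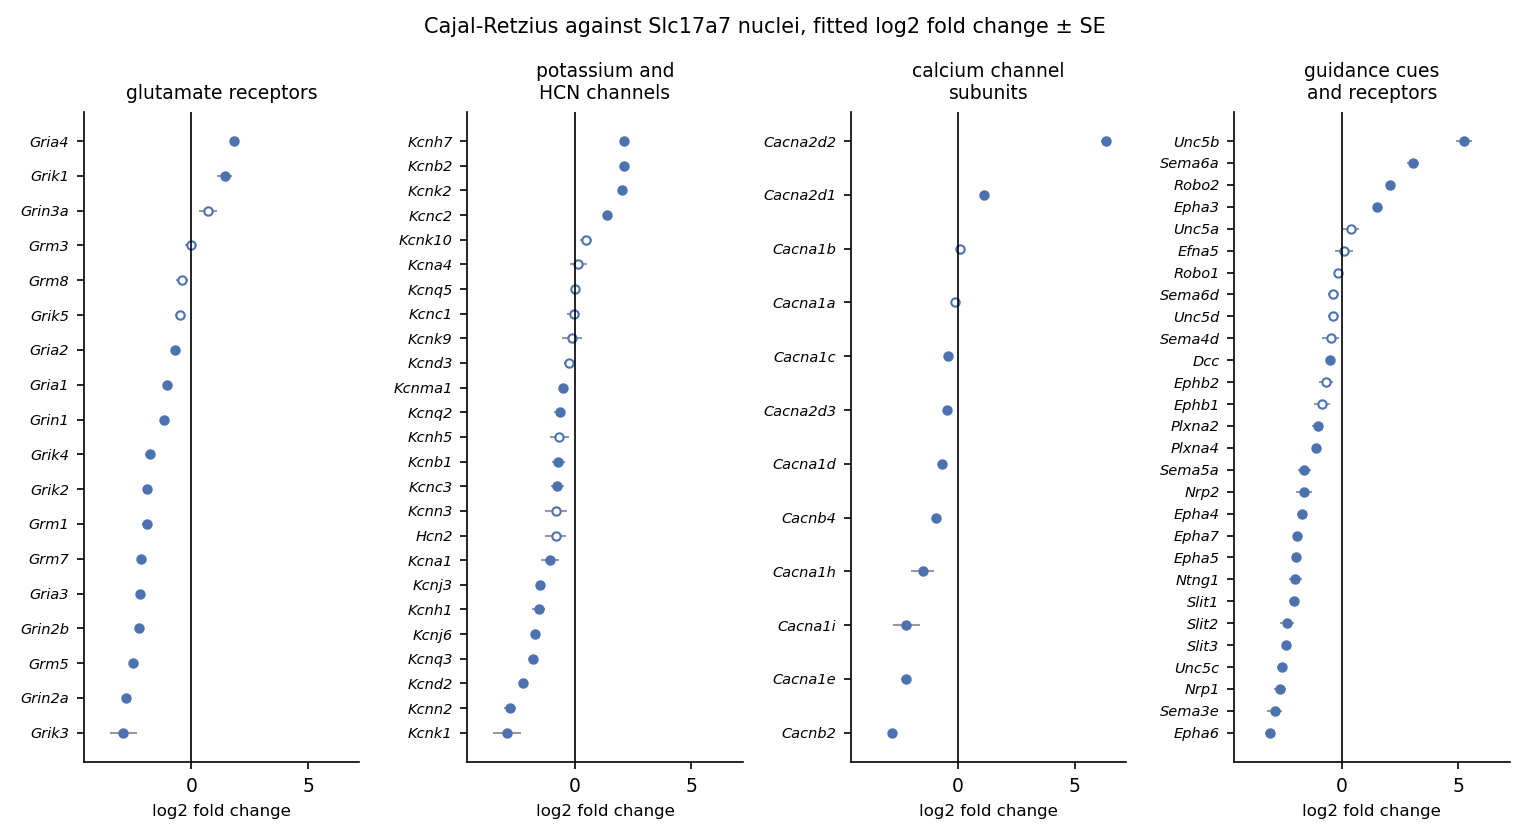
Fitted log2 fold change ± SE of Cajal-Retzius against Slc17a7 nuclei for the genes reported here from 4 lists, filled where called by edgeR at an adjusted p below 0.05 and open where not. In each panel a few genes lie to the right (Gria4 1.82, Kcnh7 2.11, Cacna2d2 6.33, Unc5b 5.24) and most called genes lie to the left of 0. With at most 2000 UMIs on both sides (not drawn) this balance did not hold for the potassium and calcium channels that could be tested.

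GABA-A receptor subunits and chloride transporters are of interest because GABA excites young Cajal-Retzius cells through their chloride gradient. No subunit of the 14 listed was called higher. Those called lower numbered 3 of 5 tested against GABAergic Reln nuclei, 6 of 10 against Slc17a7 nuclei and 7 of 13 against all others, with medians of -0.70, -0.98 and -0.81. Gabrb1 averaged 354 CPM against 1244 in Slc17a7 nuclei and was called lower, and Gabrg3 averaged 523 against 412 (0.20, adjusted p = 0.366). For the chloride importer Slc12a2 (NKCC1) 22 UMIs gave 49.0 CPM, with log2 differences of 0.54 from Slc17a7 nuclei and -0.58 from all others that were not called (adjusted p = 0.301 and 0.286). The extruder Slc12a5 (KCC2) averaged 61.0 CPM against 91.8 in Slc17a7 nuclei (-0.83 ± 0.30, adjusted p = 0.0225), lower in 10 of 17 mice. Slc4a10, a bicarbonate transporter, was at -0.67, -1.09 and -0.93. Of 8 chloride transporters and channels, 3 of 6 tested were lower than in Slc17a7 nuclei (median -0.42), 1 of 1 than in GABAergic Reln nuclei and 2 of 7 than in all others, and none was higher.

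In the reelin pathway the members, as the source of the ligand, were low in its intracellular adaptor. Dab1 averaged 589 ± 334 CPM, from 0 through 574 to 1192, against 1726 in GABAergic Reln, 2615 in Slc17a7 and 2281 in all other nuclei. It was lower in 17 of 17 mice by 1.61 ± 0.21, 2.38 ± 0.17 and 2.10 ± 0.15 on the log2 scale (adjusted p = 3.21e-07, 1.22e-22 and 1.65e-22). The receptors were not called, with Vldlr at -0.72 ± 0.45 and Lrp8 at 0.49 ± 0.29 against all other nuclei (adjusted p = 0.327 and 0.300) on 9 and 40 UMIs. Nectin1, a cell adhesion molecule known to be made by Cajal-Retzius cells, averaged 102 CPM against 21.1 in Slc17a7 nuclei, 2.06 ± 0.31 higher and higher in 15 of 17 mice. Its partner Nectin3, made by migrating and pyramidal neurons, was at -2.45. Notch1 had no UMI in any member, which allows up to 6.14 CPM, against 15.0 CPM in all other nuclei. Of the 24 genes listed, all could be tested against all others, with 2 higher and 3 lower and a median of 0.01, against -0.07 for all genes.

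Guidance cues and receptors, 40 genes in all, gave 4 higher and 16 lower of 28 tested against Slc17a7 nuclei (median -1.05), 3 and 7 of 12 against GABAergic Reln nuclei (-1.09), and 6 and 20 of 39 against all others (-0.90). Robo2, a receptor for Slit proteins, averaged 3346 ± 910 CPM, from 1422 through 3404 to 4883, against 707 in Slc17a7 nuclei. It was higher in 17 of 17 mice by 2.09 ± 0.13, and by 1.50 ± 0.14 in 16 of 17 against GABAergic Reln nuclei. The ephrin receptor Epha3 averaged 812 CPM and was 1.59, 1.50 and 2.07 higher, and the netrin receptor Unc5b (120 CPM) was 5.24 above Slc17a7 nuclei. Unc5b lay at the edge of the filter on low counts and passed it in only 2 of the 17 fits that left out 1 mouse. Unc5c, of the same family, was at -3.33, -2.54 and -2.18, Epha6 at -2.49, -3.07 and -2.30, and the cue Slit3 at -2.37 against Slc17a7 nuclei. Plxnd1 (3.19), Cxcl12 (2.32) and Sema6a (1.60) were higher than in all other nuclei.

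Genes of the p53 family and of apoptosis were of interest because Trp73 defines these cells and many of them die in youth. Trp63, Bak1 and Pmaip1 had no UMI in any member. Diablo, the mitochondrial inhibitor of inhibitor-of-apoptosis proteins, averaged 150 ± 122 CPM against 9.27 in Slc17a7 and 11.5 in all other nuclei, higher in 16 of 17 mice by 3.86 ± 0.29 and 3.61 ± 0.25. Xiap, an inhibitor of apoptosis, was 1.16 above Slc17a7 nuclei, and Mdm2, which limits p53, 1.00. Mdm2 was also called against all others (0.80) but turned to -0.15 under DESeq2. Bcl2l1, a survival factor, was called lower than in all others (-0.88). Of 19 genes, 4 of 6 tested were higher than in Slc17a7 nuclei (median 0.83) and 3 of 17 than in all others, where 1 was lower (0.21).

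Other lists moved with the kind of nucleus used for comparison. Against Slc17a7 nuclei 8 of 8 mitochondrially encoded and 36 of 55 ribosomal protein genes were higher (medians 1.06 and 1.01), whereas against all other nuclei 0 of 12 and 1 of 77 were (-0.03 and 0.22, within the -0.62 by which the other scaling moved all genes), and their part in the other results was not tested. With at most 2000 UMIs on both sides, mt-Co3 was the only gene of these lists tested against Slc17a7 nuclei, and its 1.31 became 0.42 and was not called (adjusted p = 0.0855). Sik1, an activity-regulated kinase, was 3.91 above Slc17a7 nuclei, while Homer1, Inhba, Bdnf and Nr4a1 were lower, in a list with 1 higher and 4 lower of 7 tested. Sik1 passed the filter on low counts there in only 2 of the 17 fits that left out 1 mouse. Arc, Npas4 and Egr2 had no UMI in any member. Of 8 vesicular and uptake transporters, 2 could be tested against Slc17a7 nuclei, with Slc17a6 higher and the glutamate transporter Slc1a1 lower. Rora, a nuclear receptor of the clock, averaged 1113 CPM, 0.84 above Slc17a7 and 0.90 above GABAergic Reln nuclei. Chrm3, a muscarinic receptor, was at -2.38 against Slc17a7 nuclei, where 5 of 8 tested transmitter receptors of the last list were lower and 1, the glycine receptor subunit Glrb, was higher. Apoe was 1.43 above Slc17a7 nuclei and 1.19 below all others, but with at most 2000 UMIs on both sides the first value was 0.28 and was not called (adjusted p = 0.373). App, with 636 CPM in members, was not called in any comparison (adjusted p = 0.233, 0.110 and 0.176), whereas with at most 2000 UMIs on both sides it was called 0.75 above Slc17a7 nuclei (adjusted p = 0.000125). Of the clock list 2 of 9 were higher and 1 lower than in Slc17a7 nuclei, of the heat shock list 5 and 2 of 12, and of the amyloid list 2 and 1 of 10. Among all genes tested against Slc17a7 nuclei 13.9% were higher and 18% lower.

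The share of members among all nuclei was compared between states and genotypes. Over the 20 mice it averaged 0.216% ± 0.078 (SD), with a median of 0.202%. The 9 awake mice ranged from 0.0823% through 0.279% to 0.358%, and the 7 isoflurane mice from 0.146% through 0.193% to 0.253%. The 4 ketamine mice had 0.292%, 0.134%, 0.156% and 0.142%. The awake mice held the lowest share (WT mouse 12) and the highest (APP/PS1 mouse 2), and the ranges of the states overlapped. With shares of captured nuclei, fewer cells and fewer recovered nuclei cannot be told apart.

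The means were 0.250% ± 0.095 in wake, 0.192% ± 0.034 under isoflurane and 0.181% ± 0.075 under ketamine. Isoflurane minus wake was -0.0575 percentage points (two-sided exact permutation test over mice, p = 0.152), ketamine minus wake -0.0687 (exact p = 0.224) and APP/PS1 minus WT 0.0182 (exact p = 0.613). Adjusted over these 3 tests the values were 0.336, 0.336 and 0.613, so no difference exceeded the spread between mice. Leaving out each mouse in turn, the isoflurane p before adjustment passed 0.05 only without WT wake mouse 12, which had 6 members (-0.0784, exact p = 0.0295). Each nucleus was also thinned to 1500 UMIs and shallower ones were left out, which kept 0 to 13 members a mouse. The isoflurane difference was then -0.0261 (exact p = 0.697), the ketamine difference 0.0192 (exact p = 0.871) and the genotype difference 0.0623 (exact p = 0.103). With thinning to 800 UMIs they were -0.0361 (exact p = 0.287), -0.0407 (exact p = 0.439) and 0.00520 (exact p = 0.879). Median UMIs of the members averaged 1156 in wake, 1050 under isoflurane and 1154 under ketamine. Shares were also centred on the mean of their run of neighbouring mouse numbers and permuted within runs. The differences were then -0.0566 (exact p = 0.0741), -0.0481 (exact p = 0.200, the smallest that its 5 arrangements allow) and 0.0168 (exact p = 0.623). The ketamine value is not the gap inside a run, because wake mice from runs without ketamine entered its wake mean. In the only run with both states, wake mouse 29 had 0.347% and the ketamine mice averaged 0.181%.

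**Figure D4:**
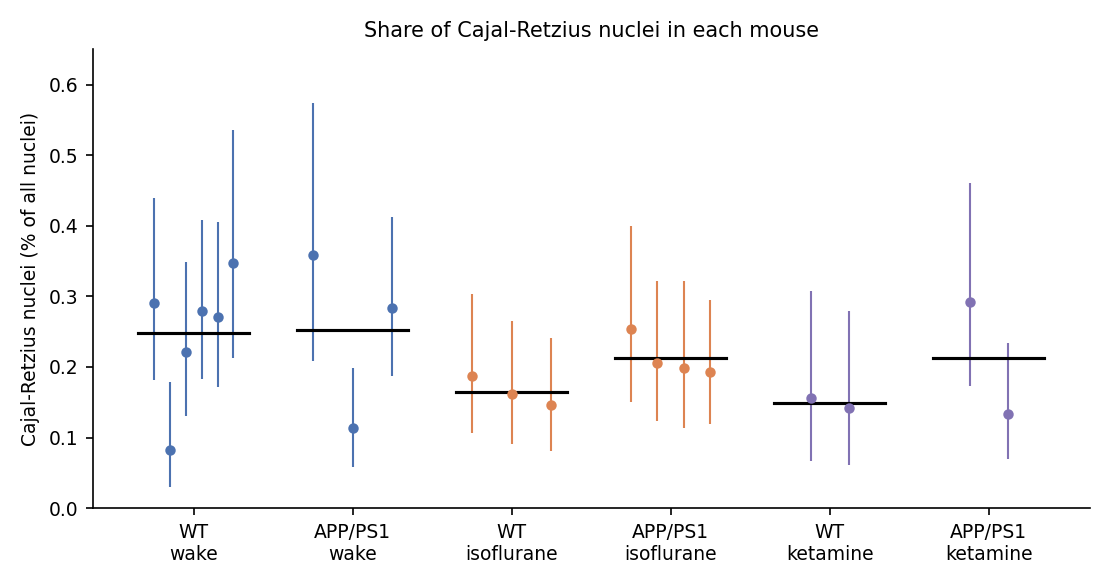
Share of Cajal-Retzius nuclei (% of all nuclei) in each of 20 mice by genotype and state, with exact 95% binomial intervals as bars and group means as black lines. The intervals of most mice overlap, and the wake groups span 0.0823% to 0.358%.

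Expression in members was then compared between states in 1 fit of 17 mice with 6 groups, of which 5 held mice, since no WT ketamine mouse had 10 members. The ketamine contrast therefore rests on APP/PS1 mice 25 and 26 against APP/PS1 wake mice 2, 10 and 17. The genotype contrast averaged wake and isoflurane alone, so mice 25 and 26 did not enter its differences. Of 743 genes tested, edgeR called 0 (0%) for isoflurane against wake over both genotypes, 0 (0%) in WT, 0 (0%) in APP/PS1, 0 (0%) for the interaction of genotype and isoflurane, 0 (0%) for ketamine and 0 (0%) for APP/PS1 against WT. At an unadjusted p below 0.05 the counts were 24, 23, 43, 51, 34 and 25. DESeq2 also called none except 3 genes for ketamine. The biological coefficient of variation of the fit was 0.418. No member of any list was called in any of the contrasts, and the isoflurane medians of lists with at least 3 tested genes ran from -0.42 for 11 guidance genes to 0.39 for 3 ribosomal protein genes, with -0.00 for all genes. Between them lay -0.34 for 11 glutamate receptors (-0.01 in WT and -0.67 in APP/PS1), -0.26 for 10 potassium and HCN channels, 0.27 for 4 heat shock genes and 0.31 for 8 mitochondrially encoded genes (1.17 and -0.43), and the differences between genotypes were not tested. The WT mitochondrial value includes mouse 3, whose members held 1.76% mitochondrial UMIs against 0.110% and 0.389% in the other 2 WT isoflurane mice. Markers of CA3 pyramidal neurons, summed over 5 genes of which Iyd was at 0, had means in members of 394 CPM in wake (235 to 657), 149 under isoflurane (0 to 464.5) and 152.5 under ketamine (71.7 to 315). In all other nuclei they averaged 583, 532 and 503.5 CPM. The part of these markers in the state contrasts was not tested. For the 8 tested mitochondrially encoded genes the ketamine median was -4.03. In the APP/PS1 mice of that contrast, members averaged 0.0413% mitochondrial UMIs under ketamine and 0.513% in wake, where mouse 2 had 1.006%. Over both genotypes the averages were 0.0478% under ketamine and 0.367% in wake, a group that includes mice 1 and 2.

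Marker levels by state are given as a description. Every member had to hold Reln, so its level across states is no sign of stability. It averaged 6731 CPM in 9 awake, 8487 in 7 isoflurane and 5778 in 4 ketamine mice, with ranges of 5499 to 9317, 3309 to 11750 and 2388 to 8500. Ndnf averaged 1106, 1391 and 1082 CPM, with ranges of 392 to 1893, 494 to 2669 and 682 to 1479. Each of these ranges overlapped the others.

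Under isoflurane the smallest p belonged to Maml2, a coactivator of Notch signalling, and Phactr1, an actin and phosphatase regulator. Maml2 ran from 551 through 862 to 1419 CPM in the 7 isoflurane mice and from 313 through 488 to 698 in the 8 awake mice of the fit. The difference of 0.95 ± 0.25 on the log2 scale was not called (edgeR, adjusted p = 0.512), and in all other nuclei Maml2 averaged 582 and 560 CPM. Phactr1 ran from 93.9 to 454 CPM under isoflurane and from 299 to 925 in wake (-1.10 ± 0.29, adjusted p = 0.512), and its averages in all other nuclei were 1128 and 1404 CPM. The groups overlapped for both genes.

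Nrxn3 ran from 56.8 to 640 CPM under isoflurane and from 49.8 to 3368 in wake (-2.10 ± 0.61, adjusted p = 0.677), and without the filter on low counts it was the only gene called for isoflurane (-2.26, adjusted p = 2.69e-06). It was among the genes held by few deep members, and members with at least 5 GABAergic UMIs made up 7.5% under isoflurane, 3.51% in wake and 10.9% under ketamine. Of the 9 such isoflurane members, 6 were among the 15 members of WT mouse 16, and the other 6 isoflurane mice held 3. The other members of mouse 16 held only 7589 of the 34449 UMIs in its sum. The WT isoflurane, isoflurane, interaction and genotype contrasts used that whole sum, as did the comparisons with other nuclei. Without the members of at least 5 GABAergic UMIs in any mouse, Nrxn3 ran from 66.1 to 640 CPM in the isoflurane mice. In the wake mice it then ran from 0 to 2916 CPM, and the groups overlapped as before. The other leading genes not called were Fchsd2 (0.94), Chd6 (0.83), Mcc (1.48), Mdga2 (0.46), Kcnq5 (-0.63), Pde4b (-1.96) and Ralyl (-1.45), each with an adjusted p of 0.985. The interaction was led by Frmpd4, a postsynaptic scaffold, with -4.26 ± 0.98 (adjusted p = 0.247). It averaged 101 CPM in APP/PS1 isoflurane, 558 in APP/PS1 wake, 732 in WT isoflurane and 215 in WT wake mice, with overlap between all but the APP/PS1 groups. Without WT isoflurane mouse 3 it was -4.77 (adjusted p = 0.0181), and without the filter on low counts -4.38 (adjusted p = 0.000400). Leaving out each mouse in turn gave -4.84 to -3.20, and Frmpd4 was called in none of those fits but the one without mouse 3. With the run of neighbouring mouse numbers as a covariate edgeR called 5 genes for the interaction, named here after their values were seen. They were Frmpd4 (-4.19, adjusted p = 0.0299), the receptor phosphatase Ptprd (-3.44, 0.0265), the protocadherin Pcdh9 (-2.66, 0.0265), Etl4 (-7.40, 0.0299) and the sarcoglycan Sgcz (-7.43, 0.0488).

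Ketamine was led by 3 transcripts that were also high in the other nuclei of the same mice. Gm42418 (chr17:39846958-39848788, plus strand), a noncoding transcript at the ribosomal RNA repeat, stood at 12500 and 4591 CPM in members of APP/PS1 ketamine mice 25 and 26 and at 8615 and 1433 in WT ketamine mice 27 and 28. In the APP/PS1 wake mice 2, 10 and 17 it stood at 1004, 1958 and 365, and in the WT wake mice it ran from 540 to 2388. Mouse 28 lay inside the wake range. All other nuclei of mice 25 to 28 had 13870, 2666, 6970 and 1744 CPM, against 401 to 1622 in wake mice. Mouse 29, the wake mouse numbered with them, was the highest wake mouse in both, at 2388 and 1622. The difference of 3.05 ± 0.68 on the log2 scale missed the threshold (edgeR, adjusted p = 0.0610).

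AY036118, which overlaps Gm42418 on the opposite strand and may not be independent of it, was at 3.24 ± 0.68. Cmss1, a ribosome biogenesis gene, was at 3.16 ± 0.70, both with the same edgeR adjusted p of 0.0610. Cmss1 had 3103, 789, 522 and 614 CPM in members of mice 25 to 28. Wake mice had from 0 to 431 CPM, without overlap, although isoflurane mice reached 681 CPM. The values of mice 27 and 28 rest on few UMIs, since 1 UMI stood for 87.0 and 68.2 CPM there. In wake mouse 12, 1 UMI stood for 153 CPM. With all 20 mice, and so with all 4 ketamine mice, edgeR called Gm42418 (2.61, adjusted p = 0.0157), AY036118 (2.49, 0.0202) and Cmss1 (2.35, 0.0316) among 547 genes tested. In the fit of 17 mice the values moved most without mouse 25, when they were 2.09, 1.94 and 1.76 and none was called (adjusted p = 0.879), and without mouse 26 they were 3.63, 3.87 and 3.81 and all 3 were called (adjusted p = 0.0268, 0.0206 and 0.0206), in each case with 1 ketamine mouse left that was assumed to vary like the other groups. Without the filter on low counts all 3 were called as well, Gm42418 at 3.25 (adjusted p = 4.55e-08), AY036118 at 3.35 (0.000243) and Cmss1 at 3.25 (0.000593). Myo9a, an unconventional myosin, had 585, 933, 435 and 614 CPM in members of mice 25 to 28 against 153 to 498 in wake, and all other nuclei had 301 to 329 and 244 to 301. Mouse 27 lay inside the wake range. Its difference of 1.68 ± 0.39 was not called (adjusted p = 0.0768, and 0.0677 with all 20 mice), and its excess over other nuclei was not tested.

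**Figure D5:**
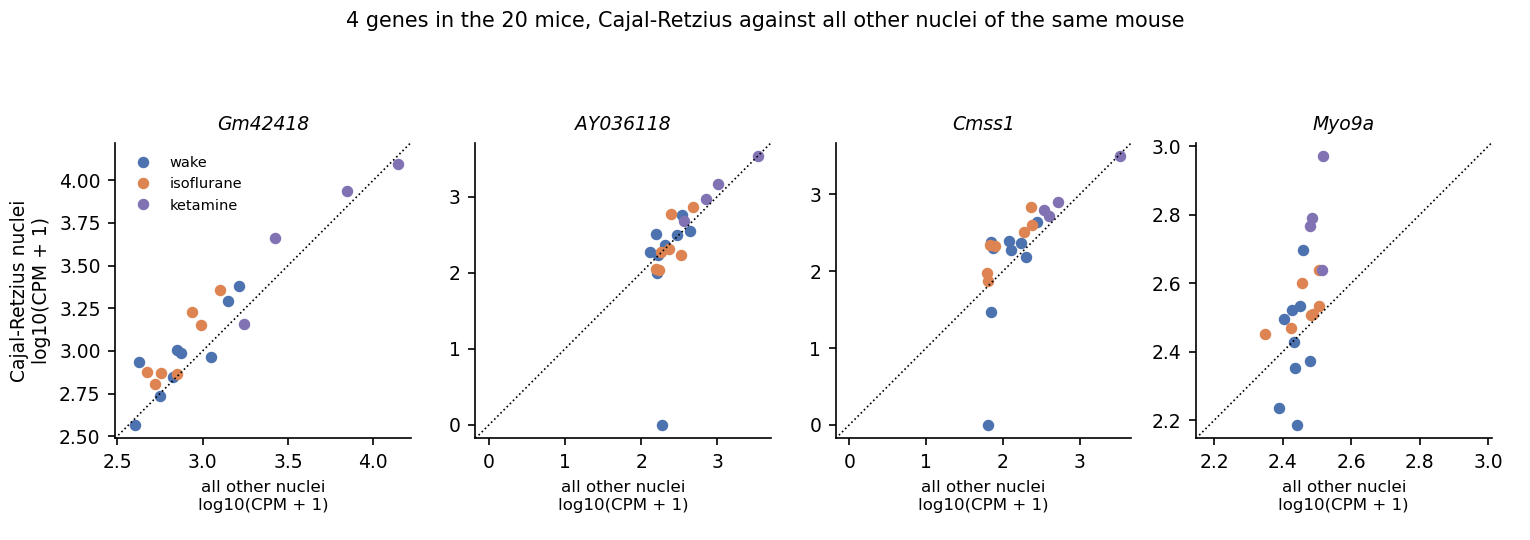
log10(CPM + 1) of Gm42418, AY036118, Cmss1 and Myo9a in Cajal-Retzius nuclei (vertical) against all other nuclei (horizontal) of the same mouse, for 20 mice coloured by state, with the dotted line at equality. For the first 3 genes the points follow the line and the ketamine mice reach the top of it, while for Myo9a the 4 ketamine mice lie above the line.

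Between genotypes no gene was called, and the leading genes are given as values. Prnp ran from 24.4 through 235 to 465 CPM in 9 APP/PS1 mice and from 0 through 61.6 to 171 in 8 WT mice (2.19 ± 0.73, edgeR, adjusted p = 0.933), and APP/PS1 mouse 17 had the lowest value of its group. Scmh1, a Polycomb protein, averaged 230 CPM in APP/PS1 and 384 in WT mice, with ranges of 73.5 to 502 and 300 to 598 that overlapped (-1.08 ± 0.28, adjusted p = 0.456). Ahcyl2 (-1.33, 0.456) and Cntnap5a (-3.03, 0.754) followed. Cntnap5a was called without the filter on low counts (-3.21, adjusted p = 5.97e-05), and 75.7% of its UMIs lay in 10 members.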

How the data were processed

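The authors deposited raw UMI counts per gene and nucleus for each of 20 hippocampal libraries, made with Cell Ranger 5.0.0 on mm10 (per the labels), with 32285 genes. The study's methods give CellBender for empty droplets and background RNA, but the file headers name Cell Ranger alone, so whether these counts were corrected is not known. The members, gene lists and tests were chosen with earlier results of these data known. Counts were summed per mouse and kind of nucleus in mice with at least 10 members (Python 3.11.15, scanpy 1.11.5) and fitted with edgeR 4.0.16 (R 4.3.3) quasi-likelihood models, with DESeq2 1.42.0 as an alternative, at a Benjamini-Hochberg adjusted p of 0.05. Differences are log2 fold changes with SE. The comparisons with other nuclei had mouse as a block and 1 TMM factor per kind of nucleus, from sums pooled over mice. This departs from the planned factor per sum, was adopted after factors per sum were tested on simulated data, and the planned scaling is given as an alternative. The states were fitted as 6 groups.

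Named genes were the rule's genes, the 10 called genes of smallest adjusted p in each direction per comparison (up to 5 not called where fewer were), and the called or defining members of 17 lists. Nrxn3, Gm42418 and the other genes followed per mouse come from that rule. Shares were compared by exact permutation over mice, with 95% exact binomial intervals, and 3 counts as the floor of a count of 0. Doublets were the top 6% of nuclei by scrublet score in each mouse, because the automatic threshold marked almost none in 6 mice, and they were kept. The fewest genes in a nucleus was 229. Libraries carried 1 mouse each. The methods describe tissue handled in sets of 4 mice, 1 of each kind, but the labels assign no mouse to a set, so runs of neighbouring mouse numbers stood in for sets as an alternative. Promoters are RefSeq sequences (GRCm38.p6) and gene positions are GENCODE (GRCm38). Alternatives changed the scaling, filter, tool, depth, rule, mice and block. A few list members are counted with their lists but are not reported here singly.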

Additional observations from a re-analysis of the deposited data

Results flagged for a closer look

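In 66 groups of 4 to 10 mice for the genes followed per mouse, 4 (6.06%) held a mouse far from the others, where chance flags about 1 in 20. Cntnap5a in APP/PS1 isoflurane mice was 107.8 CPM in 1 mouse and 0 in the others. In these mice 3 counts, the most that a count of 0 allows, stood for 110 to 170 CPM, so that value lies within this floor. Cntnap5a in WT wake mice was 540.4 CPM in 1 mouse, with the next at 199.0. Gm42418 in WT wake mice was 2388 CPM in mouse 29, with the next at 966.8. Scmh1 in WT wake mice was 597.9 CPM in 1 mouse, with the next at 341.3.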

How the results depend on the processing

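Results were recomputed under the alternatives that could be fitted, and the limit of 2000 UMIs could not be fitted against GABAergic Reln nuclei, where too few mice held enough shallow nuclei. The depth, thinning to 800 UMIs and scaling settings were added after seeing the data. The state and genotype comparisons could be blocked only by runs of neighbouring mouse numbers. In the comparisons with other nuclei mouse was the block, and with no replicate block the calls were 580 against GABAergic Reln nuclei, 1848 against Slc17a7 nuclei and 2062 against all others, from 587, 1908 and 2143. Without the filter on low counts there were 1708 calls against GABAergic Reln nuclei. Against Slc17a7 nuclei there were 1164 calls with mice of at least 20 nuclei, 962 with at least 2 UMIs of Trp73, Lhx1 and Ebf3, and 195 with at most 2000 UMIs on both sides, where 245 genes were tested. Against all others DESeq2 gave 6571, a scaling factor per sum 5079, mice of at least 20 nuclei 1007 and at least 2 UMIs of the trio 986. Leaving out each mouse gave 527 to 613, 1759 to 2095 and 1957 to 2187 calls.

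For the states, the unfiltered counts were 1 for isoflurane (Nrxn3), 5 in WT, 19 in APP/PS1, 14 for the interaction, 10 for ketamine and 9 for genotype, from 0 each. Ketamine gave 3 under DESeq2, 3 with all mice, 4 with at least 2 UMIs of the trio and 3 with at most 2000 UMIs. With the run of mouse numbers as covariate the interaction gave 5 (Frmpd4, Ptprd, Pcdh9, Etl4 and Sgcz). It gave 1 without mice 1 to 4. Leaving out each mouse gave 0 to 1 calls for isoflurane (Ralyl without mouse 16), 0 to 1 in WT (Cdh18 without mouse 3), 0 to 1 for the interaction, 0 to 3 for ketamine (3 without mouse 16, 26 or 29, and 2 without mouse 1), and 0 in APP/PS1 and for genotype. Mice of at least 20 nuclei gave no value for ketamine, WT isoflurane or the interaction, and at least 2 UMIs of the trio none for the last 2. Share differences ranged from -0.0784 to -0.0439 for isoflurane (exact p 0.0295 to 0.254), -0.106 to -0.0531 for ketamine and 0.00159 to 0.0322 for genotype without each mouse, and the ketamine one turned to 0.0192 with thinning to 1500 UMIs.

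Single genes that turned sign were Cacna2d3 (0.90), Cacna1c (0.27), Kcnma1 (0.19) and Dcc (0.83) against Slc17a7 nuclei and Ebf1 (-0.52) and Gria1 (0.19) against all others with at most 2000 UMIs. DESeq2 turned Ebf1 (-0.30), Mdm2 (-0.15) and Cacna1a (-0.58), and a factor per sum turned Cacna1a (-0.27). Mice of at least 20 nuclei turned Gsk3b (-0.0383) and Ahcyl2 between genotypes (0.0733), and at least 2 UMIs of the trio turned Tcf4 between genotypes (-0.28). The causes were not tested, except that fewer nuclei or genes entered some settings. With few members per mouse, at 6.14 CPM as the floor of all members, rare genes could not be tested.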
